A study of Arabidopsis thaliana with 12 samples.

Results

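The E-class pentatricopeptide repeat (PPR) genes of Arabidopsis thaliana were followed in 2 mutants of the alpha subunit of the general transcription factor TFIIF. They were the genes whose symbol in the deposited table starts with PCMP-E, which were 101 of the 33602 genes listed. Membership in the class rests on the symbols and on no measured value, although the class itself was picked for description with earlier results of these data known. The results on expression cover the 100 of them that lie outside the stretch of chromosome 4 between AT4G12640 and AT4G15550, called the segment here, in which the wild type of the mRNA libraries is offset. RNA came from the aerial parts of plants 6 days old, and each of 4 groups had 3 libraries. The mutant tfIIfα1 was compared with a wild type (WT) whose titles read 1171WTCol3, and these 6 libraries were made with a stranded mRNA kit. The mutant tfIIfα2 was compared with a WT whose titles read WTCol0, and these 6 libraries came from a stranded kit for total RNA depleted of plant ribosomal RNA. The labels give the genotypes by these names only and do not say what either mutation is. They do not name separate cultures either, so p-values measure the spread between these samples, which may be technical. Because each mutant has its own kit and its own WT, differences between the 2 mutants cannot be told apart from differences between kits or WT lines.

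PPR proteins are encoded in the nucleus and work in mitochondria and plastids, where each one recognises a short stretch of organelle RNA. The E class carries a short extension, the E domain, behind the repeats. Many E-class proteins select single cytidines of organelle transcripts that are then edited to uridine. They lack the DYW domain that catalyses this change in DYW-class PPR proteins (symbols starting with PCMP-H), and they work with DYW-class proteins and with MORF proteins, small partners of the editing complexes.

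The class label was checked against the ends of the reading frames, because a DYW domain closes with codons for aspartate, tyrosine and tryptophan. None of the 101 E-class frames ended in those codons, and none ended in the variant with phenylalanine in the middle. Of 74 DYW-class frames, 48 (64.9%) ended in the first form and 60 (81.1%) in one of both. The last 30 bases of the reading frames of 4 E-class genes and of 2 DYW-class genes follow, from RefSeq's TAIR10.1 assembly, 5′ to 3′ on the coding strand, with the last 3 codons before the stop in capitals.
PCMP-E103 (AT5G47460, chr5:19252463-19252492, minus strand, TAIR10.1), the gene with the smallest p in tfIIfα1: gattcaagaacaaaatgtAGTAGCTATtaa
PCMP-E42 (AT5G19020, chr5:6352771-6352800, minus strand, TAIR10.1), the editing factor MEF18: tggtcacgtgccttcagtGGTGTTGTGtga
PCMP-E53 (AT4G25270, chr4:12937253-12937282, minus strand, TAIR10.1), lower in both mutants: atgatggtggatagaggaTTGGAGACAtaa
PCMP-E95 (AT3G22150, chr3:7815461-7815490, plus strand, TAIR10.1), the member with the highest level: gttactccaagtttggaaTTGGATGAGtga
PCMP-H87 (AT3G24000, chr3:8674646-8674675, plus strand, TAIR10.1), DYW class, first form: ggtaattgttcttgcaagGATTATTGGtag
PCMP-H68 (AT1G34160, chr1:12443196-12443225, plus strand, TAIR10.1), DYW class, variant form: ggttcttgctcttgcagaGATTTTTGGtaa
None of the 4 E-class ends shown closes with the DYW codons or their variant.

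E-class genes also share a gene structure that the symbol does not fix. Of the 101 genes, 82 (81.2%) had a single exon in TAIR10.1, against 57 of 74 DYW-class genes (77.0%), 103 of 204 other PPR genes (50.5%) and 20.4% of all 26712 genes with an annotated transcript. Their median exonic length was 2192 bases, against 1486 bases over all genes, and their median GC content was 41.2%, against 41.5%. A stretch of at least 1 base of 36 members overlaps another annotated gene. The strand setting of the authors' counting is not given in the sources used here, so the values of those 36 may hold reads of the neighbour. Another measure of shared sequence was the share of 50-base words of a member's exons that also stand in another gene's exons on either strand. It was above 0 in 19 members, 100% in PCMP-E84 and 97.7% in PCMP-E51, both of which overlap a neighbour. PCMP-E79 and PCMP-E80, 2 copies close to each other on chromosome 3, shared 32.6% and 22.7% of their words.

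The mRNA libraries held 55915638 to 65589376 counts in tfIIfα1 and 57033910 to 66711096 in WT. The total RNA libraries held 33823860 to 37456773 counts in tfIIfα2 and 33292996 to 35078141 in WT, of which 12069295 to 14652749 lay on nuclear genes. Even values made up 72.2% and 69.6% of the nonzero counts of replicates a and b of tfIIfα1, against 57.6% to 61.5% in the other 4 mRNA libraries. In the total RNA libraries they made up 47.7% to 48.1%. The excess thus stood in every mRNA library and was largest in a and b, and its cause was not tested. The headers of the 2 columns of a and b name the other allele. The main counts and the interaction, which rest on these 2 columns, are therefore also given without them, which leaves 1 tfIIfα1 library whose spread is assumed to be like that of the other libraries in the fit. RAP74 (AT4G12610), the gene of the alpha subunit, was lower by a log2 fold change of -0.38 ± 0.08 (SE) in tfIIfα1 (adjusted p = 0.0022) and had -0.51 ± 0.12 in tfIIfα2 (adjusted p = 0.066). By its ID it stands just before the start of the segment, and whether the offset of the mRNA WT reaches it was not tested. Of 4 leaf genes used as tissue markers, none was at 0, and their summed level was 74000 to 75200 CPM (counts per 1000000 library counts, after TMM scaling) in tfIIfα1 and 68000 to 75500 CPM in WT. Of these 4, RCA was higher in tfIIfα1 (log2 fold change 0.2 ± 0.05, adjusted p = 0.007) and LHCB1.3 lower (-0.16 ± 0.06, adjusted p = 0.049). The summed level of 6 root genes was 1460 to 1600 CPM in tfIIfα1 and 1330 to 1530 CPM in WT, but BGLU23 alone made up nearly all of it. The other 5 root genes had at most 2.05 CPM in any mRNA library, 3 of the 6 could be tested, and 0 passed. The summed level of 4 seed storage genes was at most 0.725 CPM in any mRNA library. In the total RNA libraries the leaf genes summed to 11200 to 19800 CPM in tfIIfα2 and the same range in WT, and the root genes to 853 to 1110 CPM in tfIIfα2 and 583 to 862 CPM in WT, again nearly all from BGLU23, and 0 of the 4 leaf genes and 0 of the 2 root genes that could be tested passed. The part of such shifts in the results below was not tested. In bulk samples, fewer cells of a type and less RNA per cell cannot be told apart.

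The first comparison asked how E-class transcripts differed in tfIIfα1 from WT. Most were lower in the mutant. Of the 100 members outside the segment, 76 were lower, 1 was higher and 23 did not pass an adjusted p of 0.05 in edgeR's quasi-likelihood test, where 18.7% of all 20100 genes tested outside the segment were lower and 19.0% higher. The median log2 fold change of the members was -0.92, a drop of 1.89-fold, with the middle 50 between -1.29 and -0.62, while the median over all genes outside the segment was 0.00. At least 2-fold lower were 42 members (2.44% of all genes), and 95 of 100 had a log2 fold change below 0 (49.6% of all genes). In 85 members each mutant library lay below each WT library (24.4% of all genes), and in 2 each mutant library lay above (24.5%). In the authors' deposited table, 70 of 88 listed members were lower and 1 higher, where 10.6% of its 17838 genes outside the segment were lower and 11.5% higher. Every one of the 100 passed the filter on low counts.

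**Figure D1:**
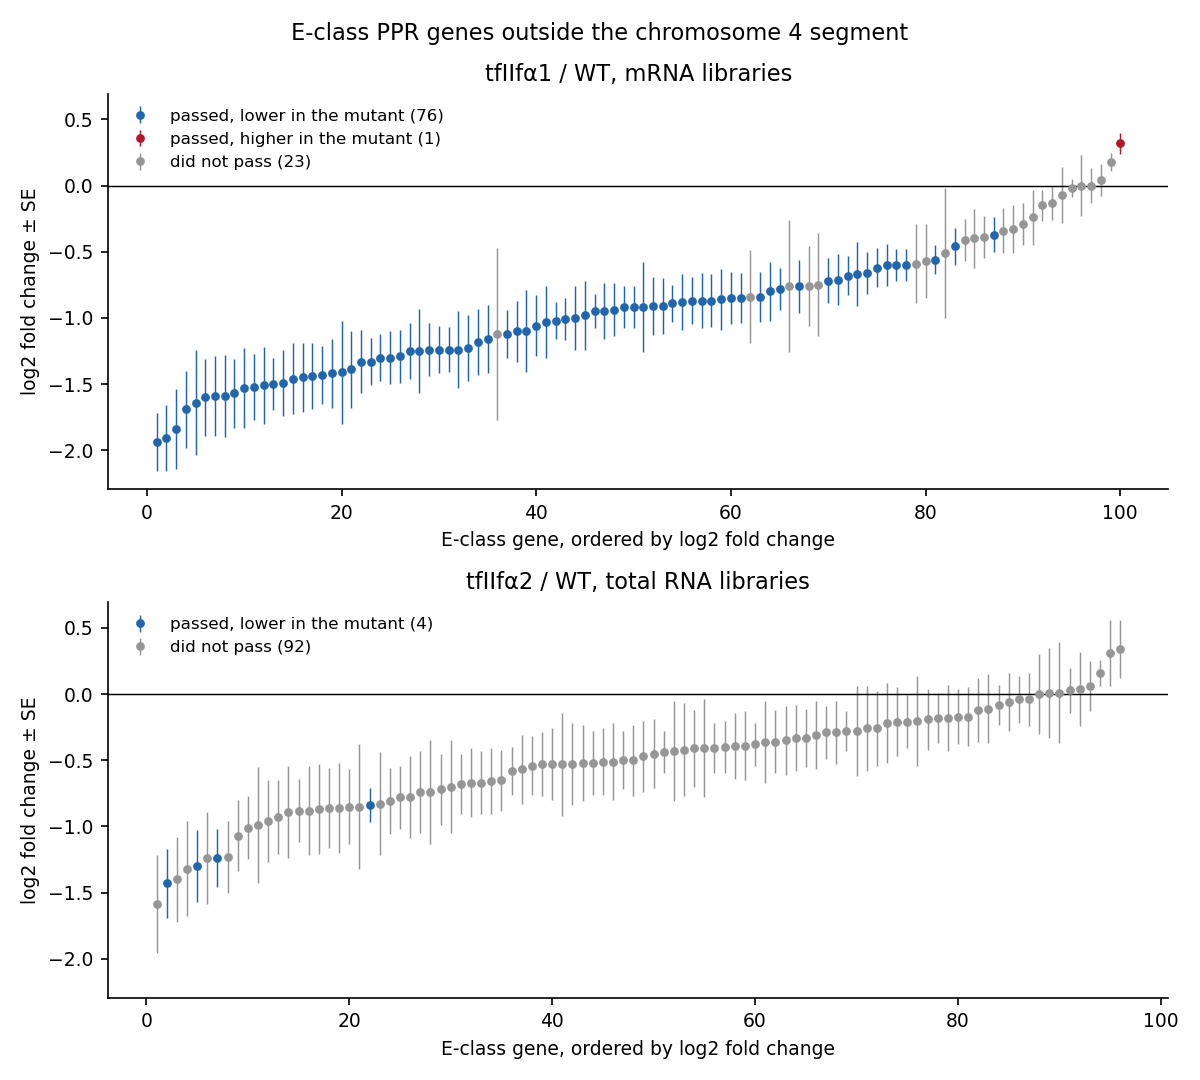
Log2 fold change with its standard error for each E-class gene outside the chromosome 4 segment, ordered by size, in tfIIfα1 against WT (top, 100 genes) and in tfIIfα2 against WT (bottom, 96 genes). Blue points passed an adjusted p of 0.05 and were lower in the mutant (76 and 4 genes), the red point was higher (1 gene in tfIIfα1), and grey points did not pass.

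The drop stood in each mutant library. The summed level of the tested members was 210, 211 and 221 CPM in the tfIIfα1 libraries, against 302, 313 and 319 CPM in WT. The median count behind a member was 64 to 69 in the mutant libraries and 132 to 155 in WT, which limits how finely a typical member could be measured. Relative to the mean of the WT libraries, the median member stood at a log2 value of -1.0, -0.96 and -0.92 in replicates 1, a and b of tfIIfα1, and at -0.06, 0.00 and 0.05 in the WT replicates. The 3 mutant libraries thus lay close together and apart from WT. Without replicates a and b, that is with 1 mutant library against 3 of WT, 61 members were lower and 1 higher, with a median of -1.0, where 10.9% of all genes were lower and 11.3% higher.

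**Figure D2:**
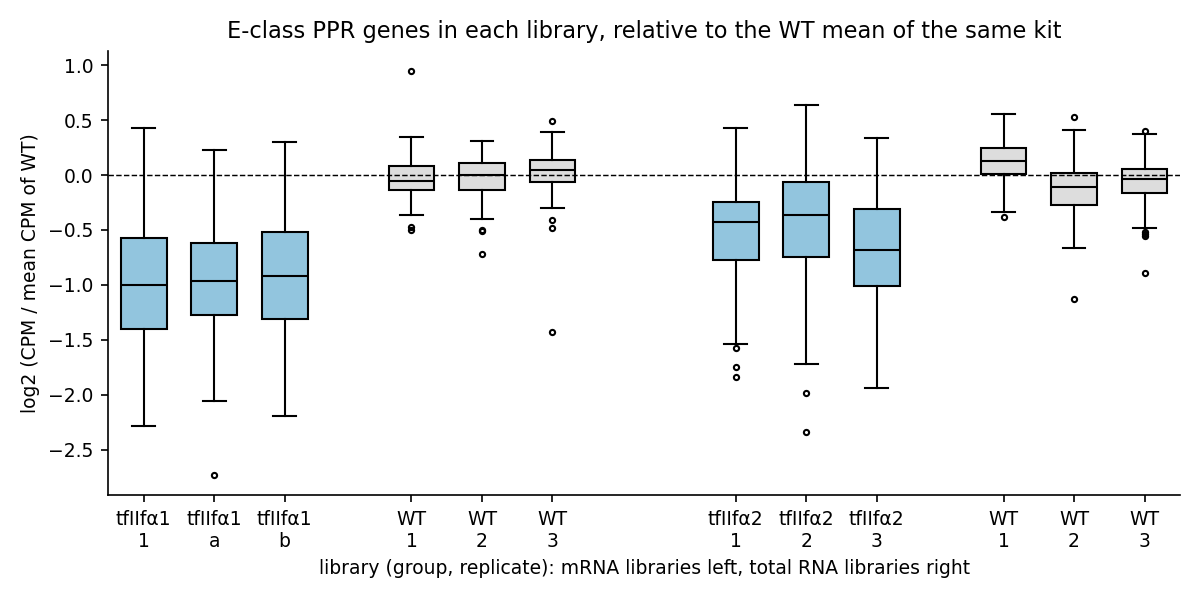
Log2 ratio of each E-class gene's CPM to the mean CPM of the WT libraries of the same kit, by library, as boxes over 100 genes (mRNA, left) and 96 genes (total RNA, right), with the median as a line, whiskers to 1.5 times the box and points beyond. Mutant libraries are blue and WT libraries grey; the mutant medians run from -1.0 to -0.92 in tfIIfα1 and from -0.68 to -0.36 in tfIIfα2.

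Median differences were larger among members with low levels. Per kilobase of exon, the median member had 0.505 CPM in tfIIfα1 and 1.04 CPM in WT, where the median over all genes tested was 6.29 CPM per kilobase in tfIIfα1 and 6.53 in WT. Among the 34 members with the lowest mean level (0.213 to 1.31 CPM) the median log2 fold change was -1.29, and 25 were lower. Among the middle 32 (1.34 to 2.17 CPM) it was -0.92, with 29 lower, and among the 34 with the highest level (2.23 to 34.0 CPM) it was -0.60, with 22 lower and 1 higher. Over all genes outside the segment at the same levels, the medians were 0.04, -0.06 and -0.03, and 9.81%, 20.6% and 21.6% were lower. These 3 groups were set by the mean over mutant and WT mRNA libraries, so a member's own drop helps to place it. Groups set instead by the WT total RNA libraries, which do not enter this fold change, had medians of -1.25 (33 members, 27 lower), -1.02 (33 members, 28 lower) and -0.60 (34 members, 21 lower and 1 higher) from the lowest to the highest level; this split was chosen after seeing the data. Exon number and place made less of a difference. Of 81 members with 1 exon 62 were lower, with a median of -0.92, and of 19 with 2 or more exons 14 were lower, with a median of -1.0. By chromosome the medians were -0.98, -0.86, -0.97, -0.71 and -1.07 on chromosomes 1 to 5. Of the 64 members outside the segment that overlap no other annotated gene 48 were lower, with a median of -0.92, and of the 36 that do 28 were lower, with a median of -0.89.

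The 10 members with the smallest p were picked on these same libraries, so the gap between their groups comes in part from that choice. In all 10 each mutant library lay below each WT library (24.4% of all genes). None of these 10 has a functional name in RefSeq, and their log2 fold changes ran from -1.94 to -0.95. PCMP-E103 (AT5G47460) had 0.529, 0.720 and 0.584 CPM in tfIIfα1, against 2.45, 2.21 and 2.38 CPM in WT, a log2 fold change of -1.94 ± 0.22 (SE; adjusted p = 9.1e-06, edgeR). PCMP-E40 (AT5G15300) had 0.404, 0.557 and 0.474 CPM in tfIIfα1, against 1.68, 2.05 and 1.67 CPM in WT (-1.91 ± 0.25, adjusted p = 3.8e-05). They were 3.83-fold and 3.75-fold lower, and both overlap a neighbouring gene. PCMP-E56 (AT1G32415), which overlaps none, had 0.778, 1.05 and 1.09 CPM in tfIIfα1, against 2.57, 2.58 and 3.10 CPM in WT (-1.50 ± 0.20, adjusted p = 4.5e-05). PCMP-E52 (AT4G39530) had 1.03, 0.982 and 1.17 CPM in tfIIfα1, against 2.83, 2.56 and 2.61 CPM in WT (-1.33 ± 0.18). Its mutant and WT libraries were again wide apart. PCMP-E14 (AT5G27110) had 1.48, 1.70 and 1.71 CPM in tfIIfα1, against 3.45, 3.41 and 4.66 CPM in WT (-1.24 ± 0.17, adjusted p = 6.5e-05). PCMP-E16 (AT5G39350), at higher levels, had 2.72, 2.46 and 2.70 CPM in tfIIfα1, against 4.90, 4.99 and 6.08 CPM in WT (-1.02 ± 0.14). PCMP-E49 (-0.95 ± 0.13), PCMP-E86 (-1.30 ± 0.18), PCMP-E80 (-1.24 ± 0.18) and PCMP-E105 (-1.43 ± 0.22) complete the 10. Without replicates a and b the median of these 10 was -1.43, on libraries that had also served to pick them.

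**Figure D3:**
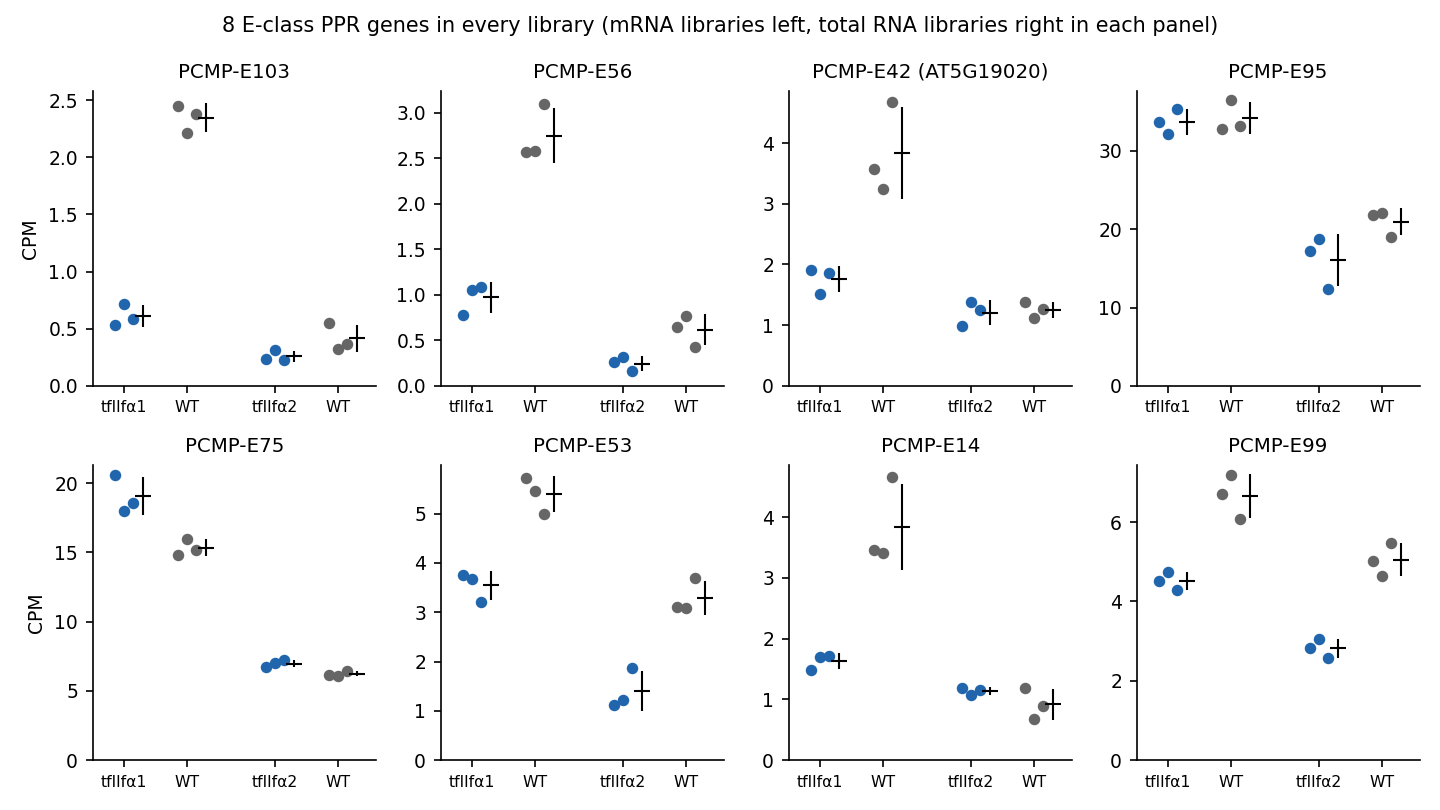
CPM of 8 E-class genes in every library, 3 points a group, with the mean and SD beside them; within each panel the mRNA libraries (tfIIfα1, WT) stand left and the total RNA libraries (tfIIfα2, WT) right, and each axis starts at 0. The points of PCMP-E103, PCMP-E56, PCMP-E42 (AT5G19020), PCMP-E53, PCMP-E14 and PCMP-E99 lie apart in the mRNA libraries, with tfIIfα1 below WT; those of PCMP-E95 overlap there, and those of PCMP-E75 lie apart with tfIIfα1 above WT.

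Of 12 members listed as RNA editing factors with a known site, 8 fell in tfIIfα1 and 4 did not pass (median -0.89 on the log2 scale). Over all genes outside the segment 18.7% were lower. PCMP-E61 (AT1G06140), or MEF3, which edits the mitochondrial atp4 transcript, had 0.591, 0.491 and 0.657 CPM in tfIIfα1, against 1.42, 1.77 and 1.70 CPM in WT (-1.49 ± 0.25, adjusted p = 0.00029). PCMP-E42 (AT5G19020), or MEF18, needed for editing of nad4, had 1.91, 1.51 and 1.86 CPM in tfIIfα1, against 3.58, 3.24 and 4.68 CPM in WT (-1.12 ± 0.18, adjusted p = 0.00019). In each of the 12, those that did not pass included, every mutant library lay below every WT library (24.4% of all genes). PCMP-E76 (AT2G13600), or SLO2, which acts on complex I transcripts and mttB, had 1.96, 2.00 and 2.66 CPM in tfIIfα1, against 4.47, 3.96 and 4.04 CPM in WT (-0.92 ± 0.16, adjusted p = 0.00035). PCMP-E10 (AT1G62260), or MEF9, which edits nad7, had 1.35, 1.67 and 1.31 CPM in tfIIfα1, against 2.96, 2.43 and 2.55 CPM in WT (-0.87 ± 0.18, adjusted p = 0.0017). PCMP-E88 (AT3G09040), or MEF12, which edits nad5, fell by 1.00 ± 0.24. Smaller and nearer to the threshold was PCMP-E69 (AT1G74600), or OTP87, which edits nad7 and atp1, with 2.85, 3.44 and 4.09 CPM in tfIIfα1, against 4.98, 4.53 and 4.71 CPM in WT (-0.46 ± 0.14, adjusted p = 0.019). The 4 that did not pass had values below 0 too. PCMP-E28 (AT2G22410), or SLO1, which acts on nad4 and nad9, had -0.34 ± 0.17 (adjusted p = 0.12). PCMP-E78 (AT2G20540), or MEF21, which edits cox3, had -0.40 ± 0.22, PCMP-E96 (AT3G25060), or MEF25, which edits nad1, had -0.75 ± 0.39, and PCMP-E41 (AT5G59200), or OTP80, which edits rpl23 in plastids, had -0.59 ± 0.30. Without replicates a and b the median of the 12 was -0.86. The list is not every member with such a name. PCMP-E93 (AT3G18970), which RefSeq names mitochondrial editing factor 20 and which was added after its values were seen, had 3.58, 4.19 and 4.09 CPM in tfIIfα1, against 3.94, 4.46 and 4.6 CPM in WT, so its groups overlapped (-0.13 ± 0.13, adjusted p = 0.44). Of the 8 members outside the segment that RefSeq names as MEF factors, 5 were lower in tfIIfα1. PCMP-E69, PCMP-E78 and PCMP-E93 each overlap another annotated gene.

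The members with the highest levels did not share the drop. PCMP-E95 (AT3G22150) had 33.7, 32.1 and 35.4 CPM in tfIIfα1, against 32.8, 36.5 and 33.2 CPM in WT, so the groups overlapped (log2 fold change -0.02 ± 0.07, adjusted p = 0.87). PCMP-E27 (AT3G29230) had 22.7, 21.6 and 22.2 CPM in tfIIfα1, against 17.7, 20 and 20.9 CPM in WT (0.18 ± 0.07, adjusted p = 0.069). Its 3 mutant libraries lay above the WT libraries, and it passed as higher once WT replicate 3 was left out, which made 2 members higher. PCMP-E75 (AT2G42920) was the 1 member that passed as higher, with 20.6, 18.0 and 18.6 CPM in tfIIfα1, against 14.8, 16.0 and 15.2 CPM in WT (0.32 ± 0.08, adjusted p = 0.0046, and 0.0068 without replicates a and b). Its gene model overlaps 3 protein-coding genes and shares 32.3% of its words with others, so its reads may not be its own. Per kilobase these 3 had 10.9, 8.45 and 4.74 CPM in tfIIfα1 and 11, 7.45 and 3.81 CPM in WT. Lower down, PCMP-E20 (AT5G08510) and PCMP-E71 (AT1G10330) had log2 fold changes of 0.00 ± 0.13 and 0.00 ± 0.23, with 3.97 to 5.08 and 1.05 to 1.82 CPM in tfIIfα1, against 4.2 to 4.7 and 1.32 to 1.61 CPM in WT.

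In the second comparison the same genes were followed in tfIIfα2, on total RNA. Few members passed, and most stood below 0. Of 96 members tested outside the segment 4 were lower and 0 higher by edgeR, where 1.71% of all 18623 genes tested outside the segment were lower and 1.48% higher. The authors' deposited table called 14 of 88 listed members lower and 0 higher, where 7.89% of its genes were lower and 8.16% higher. DESeq2 called 4 lower (3.27% of all genes) and limma-voom 3 (1.56%), both with 0 higher. At an unadjusted p under 0.05 there were 34 members in either direction, and the remaining 4 members (PCMP-E35, PCMP-E39, PCMP-E92 and PCMP-E96) did not pass the filter on low counts. The median log2 fold change was -0.48 (0.00 over all genes), 88 of 96 were below 0 (50% of all genes), and in 43 each mutant library lay below each WT library (15.6% of all genes). Same-numbered total RNA libraries deviated together, and with the replicate number as a block 13 members were lower and 0 higher, where 9.18% of all genes were lower and 9.58% higher. Leaving out any 1 of the 6 libraries took the count to 0 or 1. The summed level of the members was 113, 122 and 101 CPM in the tfIIfα2 libraries, against 155, 139 and 141 CPM in WT, without overlap. The median count behind a member was 20 to 28 in tfIIfα2 and 30 to 44 in WT, less than in the mRNA libraries.

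The 4 that passed were picked on these same libraries, so the gap between their groups comes in part from that choice. In each of them every mutant library lay below every WT library (15.6% of all genes). The gene models of PCMP-E53, PCMP-E55 and PCMP-E6 overlap another annotated gene, and PCMP-E53 shares 13.3% of its words with others. Of 35 tested members with such an overlap 3 were lower, against 1 of 61 without, where 1.71% of all genes were lower. With the replicate number as a block these were 3 of 35 and 10 of 61, where 9.18% of all genes were lower. PCMP-E99 (AT4G04370) had 2.82, 3.06 and 2.57 CPM in tfIIfα2, against 5.02, 4.64 and 5.47 CPM in WT (-0.84 ± 0.13, adjusted p = 0.029). PCMP-E53 (AT4G25270), or OTP70, needed to splice the rpoC1 intron in plastids, had 1.11, 1.23 and 1.86 CPM in tfIIfα2, against 3.11, 3.08 and 3.69 CPM in WT (-1.24 ± 0.22, adjusted p = 0.035). Both also fell in tfIIfα1, by 0.56 ± 0.11 and 0.60 ± 0.12. PCMP-E55 (AT1G31430) had 0.466, 0.316 and 0.386 CPM in tfIIfα2, against 0.929, 0.852 and 1.14 CPM in WT (-1.30 ± 0.27, adjusted p = 0.047), and fell by 1.16 ± 0.26 in tfIIfα1. PCMP-E6 (AT4G22760) had 0.336, 0.284 and 0.418 CPM in tfIIfα2, against 1.03, 0.881 and 0.892 CPM in WT (-1.43 ± 0.26, adjusted p = 0.036). It had -0.57 ± 0.28 in tfIIfα1 (adjusted p = 0.13). With a single library left out the adjusted p of these 4 ran from 0.038 to 0.15.

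With the replicate block, 9 further members were lower in tfIIfα2. PCMP-E56, one of the 10 with the smallest p in tfIIfα1, had 0.259, 0.316 and 0.161 CPM in tfIIfα2, against 0.653, 0.764 and 0.431 CPM in WT (-1.32 ± 0.36 without the block, adjusted p = 0.091, and 0.021 with it). The editing factor PCMP-E88 (MEF12), at -0.88 ± 0.24, had an adjusted p of 0.086 without the block and 0.031 with it. PCMP-E95, which did not differ in tfIIfα1, had 17.2, 18.7 and 12.4 CPM in tfIIfα2, against 21.8, 22.1 and 19.0 CPM in WT (-0.38 ± 0.16, adjusted p = 0.23, and 0.026 with the block). A further 5 were PCMP-E73, PCMP-E33, PCMP-E29, PCMP-E102 and PCMP-E13, with log2 fold changes from -1.59 to -1.01. Of the 11 of these editing factors that were tested, 0 passed without the block and 2 with it, with a median of -0.52. Over all genes 1.71% were lower without the block and 9.18% with it. These 11 ran from -0.88 to -0.06. PCMP-E93, which is not among them, had 2.22, 2.97 and 2.02 CPM in tfIIfα2, against 1.51, 2.03 and 2.18 CPM in WT, above 0 but with overlapping groups (0.34 ± 0.22, adjusted p = 0.41).

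Set side by side, the 2 comparisons share no library. Of the 96 members tested in both, 87 (90.6%) had a log2 fold change below 0 in both, where 37.7% of 18238 genes did. For 80 of 96 the log2 fold change was lower in tfIIfα1 than in tfIIfα2. Across these 96 genes the values had a Pearson's r of 0.54 and a Spearman's rho of 0.53, and across all 18238 genes 0.70 and 0.68, given as a description since genes are not replicates. Both comparisons called 3 members, tfIIfα1 alone called 73, tfIIfα2 alone 1 and neither 19. The difference between the 2 comparisons was tested as an interaction over 12 libraries, with tfIIfα2 minus tfIIfα1 as its sign. Of 99 members 1 passed as higher and 0 as lower, where 0.118% of all 20333 genes outside the segment were higher and 0.059% lower, and the median difference was 0.39. The 1 member was PCMP-E14, which fell in tfIIfα1 and had 1.19, 1.07 and 1.16 CPM in tfIIfα2, against 1.18, 0.676 and 0.892 CPM in WT (0.31 ± 0.25, adjusted p = 0.52). Its difference was 1.53 ± 0.30 (adjusted p = 0.032), and the call was lost without any 1 of 11 of the 12 libraries, with adjusted p up to 0.10. Without replicates a and b together its adjusted p was 0.21, and 0 members passed.

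**Figure D4:**
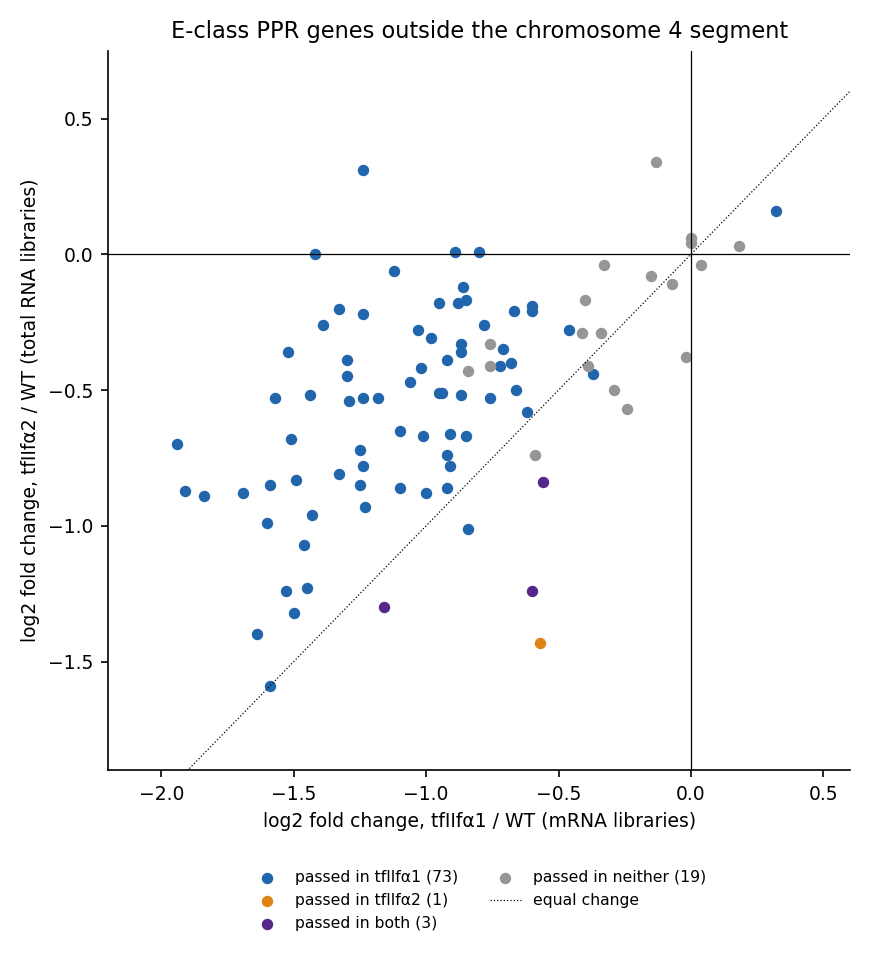
Log2 fold change of each E-class gene in tfIIfα1 against WT (horizontal, mRNA libraries) and in tfIIfα2 against WT (vertical, total RNA libraries), coloured by where it passed an adjusted p of 0.05; the dotted line marks equal change. Of 96 genes outside the chromosome 4 segment 87 lie below 0 on both axes and 80 lie above the dotted line, with the smaller drop in tfIIfα2.

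The other PPR genes were set beside the E class, outside the segment. In tfIIfα1, 50 of 70 DYW-class genes were lower and 4 higher, with a median log2 fold change of -0.80 and middle values from -1.19 to -0.38. Of 181 tested PPR genes without a PCMP symbol 43 were lower (23.8%) and 32 higher (17.7%), with a median of -0.03. Over all genes outside the segment 18.7% were lower and 19.0% higher. All 9 MORF genes were tested, 6 were higher and 0 lower, with a median of 0.31. Without replicates a and b the medians were -0.83 for DYW-class genes, -0.07 for other PPR genes and 0.15 for MORF genes. In tfIIfα2, 2 of 67 DYW-class genes were lower (2.99%), with a median of -0.38. Other PPR genes had 5 of 177 lower (2.82%) and 1 higher, with a median of -0.21. The shares over all genes in tfIIfα2 were 1.71% lower and 1.48% higher. MORF genes had a median of 0.29 there, and 0 of 9 passed. In tfIIfα1 the E and DYW curves lay close up to their middle and parted above it, with 90th percentiles of -0.288 and 0.109. Both lay apart from the other PPR genes there, while in tfIIfα2 the groups lay closer. No test between these lists was made.

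**Figure D5:**
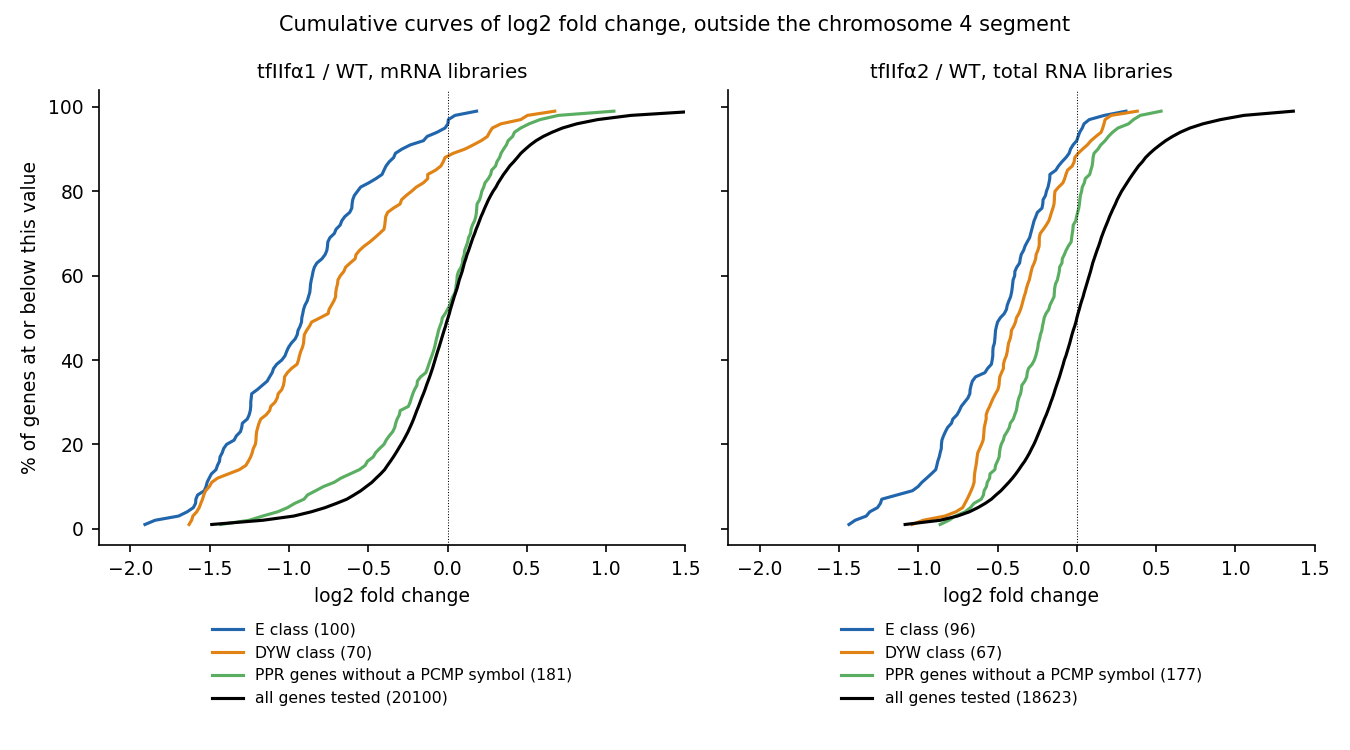
Cumulative curves of log2 fold change in tfIIfα1 against WT (left) and tfIIfα2 against WT (right), outside the chromosome 4 segment, from the 1st to the 99th percentile, for E-class genes, DYW-class genes, PPR genes without a PCMP symbol and all genes tested, with the number of genes in the legend. At the middle of the left panel the E class stands at -0.92, the DYW class at -0.80, the other PPR genes at -0.03 and all genes at 0.00.

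Promoters were examined because the mutated factor acts at transcription starts. The 250 bases before each annotated start in TAIR10.1 were searched on both strands for the TATA motif TATAAA, the telo box AAACCCTA and the 2 forms of site II, TGGGCC and TGGGCT, elements found in promoters of plant housekeeping and organelle-protein genes. A promoter with both forms of site II was counted once. Of 100 E-class promoters outside the segment, 26 (26.0%) held site II, against 25.4% of DYW-class, 31.8% of other PPR and 19.6% of all 26710 nuclear protein-coding promoters. TATAAA stood in 46.0% of E-class and 47.7% of all promoters, and the telo box in 7.0% and 4.8%. Site II was found in 16 of the 76 promoters of members that were lower in tfIIfα1 (21.1%) and in 10 of the 23 of members that did not pass (43.5%), given as counts with no test. Without replicates a and b these were 12 of 61 (19.7%) and 14 of 38 (36.8%). The promoters of the member with the smallest p in tfIIfα1, of the member with the smallest adjusted p in tfIIfα2 and of the member with the highest level are shown 5′ to 3′ up to the base before the annotated start, with these motifs on either strand in capitals.
PCMP-E103 (chr5:19254337-19254586, minus strand, TAIR10.1), none of the motifs: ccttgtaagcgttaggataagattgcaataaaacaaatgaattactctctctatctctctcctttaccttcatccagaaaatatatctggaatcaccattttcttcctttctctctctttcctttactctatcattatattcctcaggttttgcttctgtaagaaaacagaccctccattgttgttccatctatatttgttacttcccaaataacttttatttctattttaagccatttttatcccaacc
PCMP-E99 (chr4:2136322-2136571, minus strand, TAIR10.1), telo box and TATAAA: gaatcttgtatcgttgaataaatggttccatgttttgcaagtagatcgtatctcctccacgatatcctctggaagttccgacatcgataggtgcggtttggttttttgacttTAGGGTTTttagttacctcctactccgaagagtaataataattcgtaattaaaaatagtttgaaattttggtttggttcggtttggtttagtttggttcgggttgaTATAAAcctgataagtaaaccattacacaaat
PCMP-E95 (chr3:7812626-7812875, plus strand, TAIR10.1), 4 site II matches and TATAAA: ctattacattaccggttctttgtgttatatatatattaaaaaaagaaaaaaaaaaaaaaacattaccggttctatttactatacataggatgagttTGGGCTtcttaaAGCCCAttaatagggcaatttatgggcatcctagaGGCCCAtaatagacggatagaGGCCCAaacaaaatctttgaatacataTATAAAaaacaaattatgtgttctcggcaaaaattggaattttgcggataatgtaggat
In PCMP-E99 TATAAA began 32 bases before the start, and the telo box stood 138 to 131 bases before it on the other strand. In PCMP-E95 the site II matches lay between 154 and 81 bases before the start and TATAAA began 59 bases before it. A match describes letters in this window and does not show a bound site.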

How the data were processed

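The values analysed were whole-number counts per gene for 33602 genes, deposited by the authors as raw counts. The submitters' processing notes list edgeR 3.20.1, Bowtie2 2.2.9 and FastQC 0.11.5 and the build TAIR10 without saying what each did; the counting tool and its strand setting are not given in the sources used here. The authors also deposited, per the file headers, group means of normalized values (a score here, since they are rounded), log2 fold changes and adjusted p-values.

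Groups came from the labels. Headers of 2 of the 3 columns taken as tfIIfα1 (replicates a and b) name the other allele; a linear combination of the 3 count columns gives the group mean that the authors deposited for tfIIfα1 to within 0.0348% (2999 genes whose mean is above 2000). Not used were 6 count columns of no sample and 18 normalized columns. Replicates of a group differed by more than sampling noise (9.8 to 46.9 in chi-square per degree of freedom).

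Mutant and WT libraries of 1 kit were compared in edgeR 4.0.16 under R 4.3.3 (filterByExpr, TMM, quasi-likelihood test, Benjamini-Hochberg over all genes tested, threshold 0.05); the difference between comparisons was an interaction over 12 libraries. The pipeline was tested on simulated data. Each standard error was the size of the log2 fold change divided by the root of F. CPM used TMM library sizes. Same-numbered total RNA libraries deviated together from their group means (r = 0.638, 0.231 and 0.534 over genes; the pairing is inferred from the titles and these values), so values with a block for that number are printed wherever calls changed. Exon models, reading frames, promoters and names came from RefSeq's TAIR10.1, which matched 101 of 101 members; the counts carry no coordinates and none was converted.

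The E class and the comparison lists were picked with earlier results of these data known; membership rests on symbols. Genes named were members inside the segment, the 10 smallest p that passed lower and up to 6 that passed higher in tfIIfα1, every member that passed in tfIIfα2 or in the interaction, 12 listed editing factors, and 3 each with the highest level per length and the smallest difference; some genes under this rule are not reported here. Others named, such as those gained with the block, were chosen after their values were seen. Alternatives were other normalization, filters and thresholds, DESeq2 1.42.0, limma-voom (limma 3.58.1), joint and blocked fits, and libraries or gene groups left out.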

Additional observations from a re-analysis of the deposited data

Results flagged for a closer look

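The difference between the 2 comparisons, tested as an interaction in edgeR, passed for PCMP-E14 among the E-class genes outside the segment. Its log2 fold change in tfIIfα2 minus that in tfIIfα1 was 1.53 ± 0.30 (SE; adjusted p = 0.032). Of all genes outside the segment 0.118% passed this test as higher. With single libraries left out, the adjusted p of PCMP-E14 in edgeR ran from 0.014 to 0.10, and most of these fits lost the call. In this gene each tfIIfα1 library lay below each WT library of its kit (24.4% of all genes), while the tfIIfα2 and WT libraries overlapped. Allele, kit and WT line differ together between the comparisons and cannot be told apart.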

How the results depend on the processing

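In tfIIfα1, from 61 to 78 E-class genes outside the segment were lower under the alternatives run. Leaving out 1 library gave 73 to 75 lower and 1 to 2 higher, with medians from -0.97 to -0.88, and leaving out replicates a and b together gave a median of -1.0. Replicates a and b carry no number of their own, so the replicate block was run with both ways of numbering them 2 and 3, an alternative chosen after seeing the data. It gave 75 lower and 1 higher with a as 2 (17.7% and 17.9% of all genes), and 77 lower and 2 higher with a as 3 (21.0% and 21.4%), where PCMP-E27 passed as higher (adjusted p = 0.047). Libraries matched in this way had correlations from -0.0737 to 0.163, so they share only a number. In tfIIfα2 the count lower was 0 at an adjusted p of 0.01 (0.0752% of all genes outside the segment lower), 2 of 42 genes with at least 1 CPM in 3 libraries (1.93%), 17 of 99 in one fit over 12 libraries (7.47%), 13 with the replicate block (9.18%) and 0 to 1 with a library left out (0.00527% to 0.456%), always with 0 higher. The replicate block changed no other call of the named genes than those given above. The interaction count was 0 at an adjusted p of 0.01, 0 with limma-voom, 0 without replicates a and b, an alternative chosen after seeing the data, and 0 to 1 with a library left out. Values near 0 changed sign with a library left out. In tfIIfα1 PCMP-E95 ran from -0.05 to 0.03, PCMP-E20 from -0.1 to 0.09 and PCMP-E71 from -0.16 to 0.2. In tfIIfα2 PCMP-E71 ran from -0.15 to 0.28, PCMP-E27 from -0.07 to 0.18 and PCMP-E52 from -0.61 to 0.01. PCMP-E20 ran there from -0.05 to 0.23 and PCMP-E42 (AT5G19020) from -0.17 to 0.07. The causes were not tested. Of 1038 values of single genes under alternatives, 963 kept direction and side of the threshold. Median counts of 20 to 44 per member limit what the total RNA libraries can show.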
